A study of Homo sapiens with 6 samples.

Results

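The enzymes of heme synthesis were examined in cells labelled NCI-H929 with and without knockdown of IGF2BP1. The group comprised 8 enzymes, chosen by name from the 20030 genes of the deposited table: ALAS1, ALAS2, ALAD, UROS, UROD, CPOX, PPOX and FECH. These are the listed enzymes and not the whole pathway. All 8 passed the filter on low counts, as did 11994 genes in all. RNA was sequenced in 6 libraries of a cell line labelled H929 and multiple myeloma cells, 3 of IGF2BP1 knockdown cells (IGF2BP1-KD) and 3 of negative control cells (IGF2BP1-NC). The knockdown used short hairpin RNA under a human U6 promoter in a lentiviral vector with a puromycin marker, and stable lines were selected. The sources used here do not say which hairpin these libraries carried or which vector the negative control cells received. No treatment or time point is given for either group. Nothing in the labels says that the libraries of a group came from separate cultures, so p-values measure the spread between these libraries, which may be technical.

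Heme is made partly in the mitochondrion and partly in the cytosol. ALAS1, present in most cells, and ALAS2, the erythroid form, condense glycine with succinyl-CoA to 5-aminolevulinic acid, which is the step that sets the rate of the pathway. ALAD joins aminolevulinic acid molecules to porphobilinogen in the cytosol, UROS closes the ring to uroporphyrinogen III, and UROD removes carboxyl groups from it. CPOX and PPOX then oxidize the porphyrinogen at and within the mitochondrial membranes, and FECH inserts iron to give heme. Developing red cells make far more heme than other cells and induce ALAS2 under the erythroid factor GATA1. IGF2BP1 is an RNA-binding protein that reads N6-methyladenosine in mRNAs and is known for stabilizing its targets.

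The libraries held 16885449 to 18112179 counts, so a count of 0 allowed up to 3 counts, or 0.166 to 0.178 CPM (counts scaled to a library of 1000000), which covers counting error only. The targeted gene IGF2BP1 had 401 to 451 CPM in control and 115 to 123 CPM in knockdown libraries (log2 fold change -1.85, adjusted p = 4.8e-08, edgeR quasi-likelihood fit, Benjamini-Hochberg). The markers of the labelled cell type were largely missing. Of 15 plasma cell markers, 7 had at most 3 counts in every library, among them TNFRSF17, IRF4 and CD38, while CD27 had 0 counts in all 6. Above 1 CPM in every library were 4 others, SDC1, PRDM1, DERL3 and XBP1, the last with 153, 79.2 and 72.3 CPM in IGF2BP1-NC and 71.7, 75.7 and 67.4 CPM in IGF2BP1-KD. SLAMF7 went from 4 to 5 counts in IGF2BP1-NC to 42 to 181 counts in IGF2BP1-KD (log2 fold change 4.37, adjusted p = 0.00878, edgeR quasi-likelihood fit, Benjamini-Hochberg), a call lost without IGF2BP1-NC replicate 1 (0.0579) or 3 (0.0588). All 15 erythroid markers, among them GATA1, KLF1 and TAL1, were above 1 CPM in every library. The summed level of the erythroid markers was 3032 to 3306 CPM in IGF2BP1-NC and 2528 to 2747 CPM in IGF2BP1-KD. After knockdown 4 of the 15 were higher and 7 lower, against 13.7% and 14.5% of all genes tested. Their largest changes were rises, of SLC4A1 (log2 fold change 2.50) and EPB42 (1.73), and the largest fall was that of RHAG (-0.63). The summed level of 9 granulocyte and mast cell markers was 7.53 to 12.4 CPM in IGF2BP1-NC and 91.9 to 270 CPM in IGF2BP1-KD. Most of the latter was PRG2, with 1473, 1645 and 4026 counts (82.4, 97.1 and 230 CPM) in replicates 1, 2 and 3. Only 4 of the 9 were tested, and 3 were higher, PRG2, EPX and MS4A2. In replicates 1, 2 and 3, EPX had 4, 4 and 1 counts in IGF2BP1-NC and 17, 21 and 76 in IGF2BP1-KD. MS4A2 had 5, 16 and 6 against 134, 149 and 492 counts. Like SLAMF7, both passed the filter on low counts through the IGF2BP1-KD libraries, so their being tested depended on being high there. PRTN3 was not called, and the mast cell genes TPSAB1 and CPA3 had at most 1 count in any library. The part of these marker levels in the results on the enzymes was not tested. In bulk RNA, fewer cells of a type and less RNA per cell cannot be told apart.

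Sequences are shown for the members whose values differed most between the groups and for ALAS1, the housekeeping counterpart of ALAS2. RefSeq promoter windows on GRCh38.p14, from 250 bases before to 50 bases after each start, were found for 7 of the 8 enzymes (9 windows), and for UROS none was found. They were searched on both strands for the word AGATAA and its variant TGATAA, which GATA factors recognize, for CACCC, a word of KLF-type factors, and for CGCATGCG, a word of NRF1. AGATAA occurred in 10.3% of all 35116 windows and in windows of ALAS2, CPOX and PPOX. TGATAA occurred in 7.53% of all windows and in none of the members' windows. CACCC was present in 59.9% of all windows and in those of 6 members, namely ALAD, ALAS1, ALAS2, CPOX, PPOX and UROD. CGCATGCG, found in 2.02% of all windows, was in that of ALAS1. The capitals below mark AGATAA, which reads TTATCT on the strand shown since the matches lie on the opposite strand, and for ALAS1 they mark CGCATGCG. A match is a description of these letters and not a binding site.
ALAS2, chrX:55031059-55031144, minus strand: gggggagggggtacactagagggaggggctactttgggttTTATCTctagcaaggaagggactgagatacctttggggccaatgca
CPOX, chr3:98593706-98593843, minus strand: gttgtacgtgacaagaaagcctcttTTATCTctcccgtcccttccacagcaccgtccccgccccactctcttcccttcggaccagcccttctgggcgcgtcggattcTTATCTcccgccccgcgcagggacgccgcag
PPOX, chr1:161166571-161166600, plus strand: agggtgtggcccTTATCTgcacccagcaga
ALAS1, chr3:52198094-52198123, plus strand: agcgcccaaggCGCATGCGcagcggtcact

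Relative to the RefSeq start, the AGATAA match of ALAS2 lay at -127 and those of CPOX at -207 and -125. That of PPOX lay at -63 from a RefSeq start and within the annotated 5′ UTR of another transcript in GENCODE release 44. The 5′ UTR of ALAS2 also carries the iron-responsive element, a hairpin through which iron regulatory proteins hold back translation when iron is low. Its loop, in capitals, lies in the first exon, and the stretch covers bases 7 to 34 of the mRNA.
ALAS2, chrX:55030944-55030971, minus strand: cattcgttcgtcctCAGTGCagggcaac

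The word TGGAC, around which the IGF2BP family is known to bind when the adenosine is methylated, occurred in 94.3% of 11503 canonical mRNAs at a median of 1.15 per kilobase, with quartiles at 0.713 and 1.77. UROD had 5.03 per kilobase, from 6 matches in 1193 bases. ALAS1 followed with 2.95, PPOX with 2.31, ALAS2 with 2.06 and ALAD with 1.60 per kilobase. FECH with 0.78, UROS with 0.749 and CPOX with 0.738 were below the median. Methylation of these words was not measured here.

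Levels were compared between genes as FPKM, that is per gene length. UROD mRNA was the most abundant, at 433 ± 14.4 FPKM (SD, n = 3) in IGF2BP1-NC and 453 ± 34.5 FPKM in IGF2BP1-KD. ALAS2 came next with 79.4 ± 22.5 and 133 ± 18.7 FPKM, and FECH had 22.6 ± 1.46 and 20.3 ± 1.94 FPKM. ALAD was the least abundant in both groups with 4.69 ± 0.805 and 5.33 ± 0.219 FPKM. In IGF2BP1-NC the remaining members stood in the order ALAS1, PPOX, CPOX and UROS between 14.9 and 11.2 FPKM, where the libraries of PPOX and CPOX, and of CPOX and UROS, overlapped. In IGF2BP1-KD the order was PPOX, ALAS1, UROS and CPOX, from 16.9 down to 9.73 FPKM, where the libraries of ALAS1 and UROS, and of UROS and CPOX, overlapped. UROD made up 64.8% to 75.7% of the summed FPKM of the 8 enzymes in each library. The share of ALAS2 was 9.74% to 15.3% in IGF2BP1-NC and 17.5% to 24.1% in IGF2BP1-KD, and did not overlap between the groups.

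The order of the middle members depended on the gene length. The length implied by the deposited FPKM of UROS was 5873 bases, 4.40 times its canonical mRNA in GENCODE release 44 (1336 bases). For PPOX it was 5105 against 1733 bases and for CPOX 4952 against 2709 bases, while for ALAS1, ALAS2 and FECH the lengths differed by at most 1.10 times. Per canonical length UROS stood at 49.3 FPKM in IGF2BP1-NC, behind UROD at 536 and ALAS2 at 87.3, and PPOX followed at 38.9 FPKM. CPOX then stood at 24.0 and FECH at 21.9 FPKM with overlapping libraries, ALAS1 at 15.5 and ALAD at 5.64 FPKM. UROD and ALAS2 at the top and ALAD at the bottom kept their places under both lengths. The length cancels in any comparison of the same gene between the groups.

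The rate-setting step was examined first. ALAS2 (chromosome X, 55009055 to 55030977, minus strand, GRCh38) had 113, 194 and 205 CPM in IGF2BP1-NC replicates 1, 2 and 3 and 256, 265 and 327 CPM in the IGF2BP1-KD replicates. Every IGF2BP1-KD library was above every IGF2BP1-NC library, and IGF2BP1-NC replicate 1 stood well below the other controls. The fitted difference was the largest of the 8, a log2 fold change of 0.73 ± 0.263 (SE; 95% interval 0.04 to 1.41), or 1.66-fold, but it did not pass the threshold over all genes tested (adjusted p = 0.107, edgeR quasi-likelihood fit, Benjamini-Hochberg). Without IGF2BP1-NC replicate 1 the log2 fold change was smaller, 0.50, and passed (adjusted p = 0.00964 in the same edgeR test). It also passed with DESeq2 (adjusted p = 0.0324) and limma-voom (adjusted p = 0.0175), and over all alternatives its p ran from 0.00964 to 0.263, so the call on ALAS2 rested on the method and on 1 library while its direction did not. Exons of ALAS2 shared 3 bases with those of APEX2 on the opposite strand, whose log2 fold change was -0.04.

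ALAS1 (chromosome 3, 52198086 to 52214327, plus strand), which serves heme synthesis outside the red cell lineage, had 36.9, 36.3 and 37.8 CPM in IGF2BP1-NC and 35.2, 35.2 and 32.3 CPM in IGF2BP1-KD. The groups did not overlap, but the difference was small, with a log2 fold change of -0.11 ± 0.076 (95% interval -0.28 to 0.06, adjusted p = 0.303, edgeR quasi-likelihood fit, Benjamini-Hochberg). The ratio of ALAS2 to ALAS1 FPKM came to 3.54, 6.18 and 6.25 in IGF2BP1-NC replicates 1, 2 and 3 and to 8.38, 8.68 and 11.7 in the knockdown replicates. ALAS2 was thus the more abundant form in every library, and the ratio was 1.84-fold higher in IGF2BP1-KD (difference of 0.88 on the log2 scale, exact permutation test, two-sided, p = 0.1, the smallest p that 3 against 3 libraries allow).

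**Figure D1:**
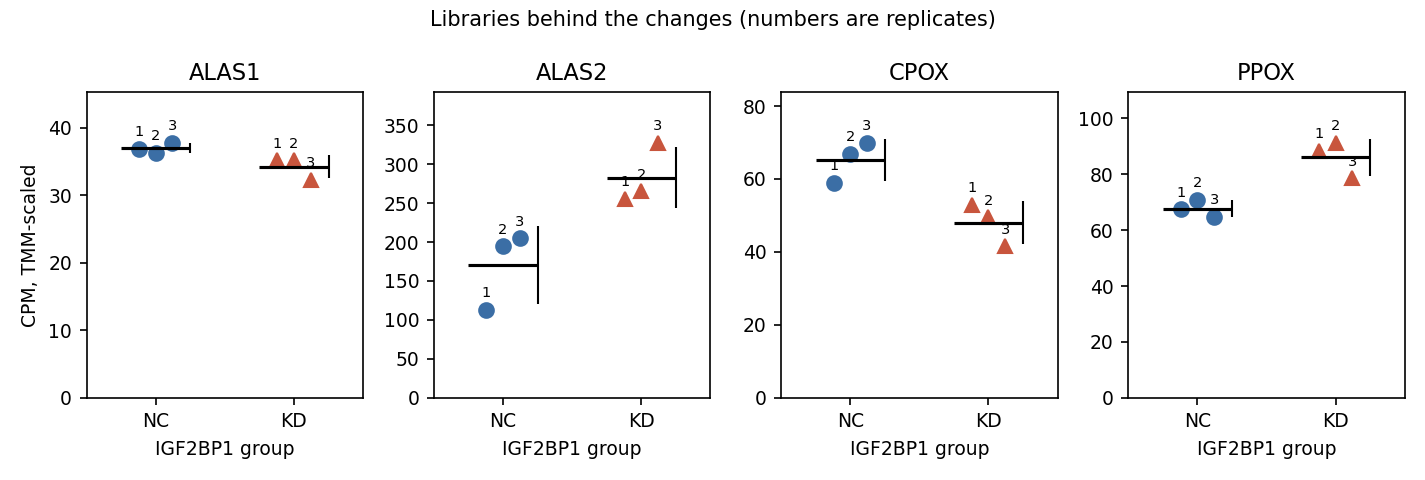
TMM-scaled CPM of ALAS1, ALAS2, CPOX and PPOX in each library, axes from 0, numbered by replicate, with bars at the group mean and lines of 1 SD (n = 3). The panels show the 4 enzymes whose groups do not overlap, as was the case for 45.6% of all genes tested. IGF2BP1-NC replicate 1 is the low library of ALAS2 at 113 CPM.

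The cytosolic enzymes between the first step and the return to the mitochondrion showed no called change. ALAD (chromosome 9, 113386312 to 113401290, minus strand) had 20.5, 14.9 and 17.6 CPM in IGF2BP1-NC and 21.0, 19.6 and 19.4 CPM in IGF2BP1-KD (log2 fold change 0.18, 95% interval -0.09 to 0.44). UROS (chromosome 10, 125784980 to 125823258, minus strand) had 72.8, 63.6 and 61.9 CPM against 82.1, 77.8 and 61.8 CPM (log2 fold change 0.16, 95% interval -0.08 to 0.40). The groups overlapped for both, since control replicate 1 of ALAD was above 2 of the knockdown libraries and knockdown replicate 3 of UROS was below every control. Without IGF2BP1-KD replicate 3 the log2 fold change of UROS was 0.28 and passed the threshold (adjusted p = 0.0469, against up to 0.655 when another library was left out, edgeR quasi-likelihood fit, Benjamini-Hochberg).

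UROD (chromosome 1, 45010950 to 45015575, plus strand) had 608, 659 and 662 CPM in IGF2BP1-NC and 711, 683 and 608 CPM in IGF2BP1-KD. Replicate 3 of the knockdown was at the level of replicate 1 of the control, and the log2 fold change was 0.05 ± 0.071 (95% interval -0.10 to 0.21). The interval of UROD leaves room for a rise of at most 0.21 on the log2 scale, the narrowest range among the 8. Its exons shared 375 bases with HECTD3 on the opposite strand, a gene with 96.9 to 123 CPM with a log2 fold change of -0.21 (adjusted p = 0.0355, edgeR quasi-likelihood fit, Benjamini-Hochberg), a call that held in 1 of the 6 fits leaving out a library, that without IGF2BP1-NC replicate 1 (up to 0.145 in the others).

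CPOX, which oxidizes coproporphyrinogen III, fell after knockdown. The gene (chromosome 3, 98579446 to 98593648, minus strand) had 58.9, 66.9 and 69.9 CPM in IGF2BP1-NC and 53.0, 49.6 and 41.6 CPM in IGF2BP1-KD. All 3 knockdown libraries were below all 3 control libraries, with replicate 3 lowest. The log2 fold change was -0.44 ± 0.098 (95% interval -0.66 to -0.22, adjusted p = 0.00755, edgeR quasi-likelihood fit, Benjamini-Hochberg), a level of 0.737 times that of the control. The call held in each of the 6 fits that left out 1 library, with log2 fold changes from -0.51 to -0.35.

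PPOX, which oxidizes protoporphyrinogen IX in the next step, rose. The gene (chromosome 1, 161166056 to 161178013, plus strand) had 67.6, 70.9 and 64.8 CPM in IGF2BP1-NC and 88.5, 91.2 and 78.7 CPM in IGF2BP1-KD. The lowest knockdown library, replicate 3, was still above the highest control. The log2 fold change was 0.35 ± 0.075 (95% interval 0.18 to 0.51, adjusted p = 0.0064, edgeR quasi-likelihood fit, Benjamini-Hochberg), or 1.27-fold, and the call held in all 6 fits without 1 library (0.30 to 0.41). Exons of PPOX shared 1118 bases with B4GALT3 on the opposite strand. The library kit is stranded but the strand setting of the counting is not given in the sources used here, so reads of the shared bases have an unknown assignment. B4GALT3 had 84.7 to 96.3 CPM in IGF2BP1-NC and 73.0 to 83.4 CPM in IGF2BP1-KD (log2 fold change -0.21, adjusted p = 0.0585 in the edgeR test), a difference opposite in sign to that of PPOX.

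FECH (chromosome 18, 57544377 to 57586732, minus strand), the enzyme that inserts iron, had 156, 168 and 182 CPM in IGF2BP1-NC and 161, 158 and 134 CPM in IGF2BP1-KD. The groups overlapped, replicate 3 of the knockdown was lowest, and the log2 fold change of -0.16 ± 0.082 did not pass (95% interval -0.34 to 0.02, adjusted p = 0.165, edgeR quasi-likelihood fit, Benjamini-Hochberg). Replicate 3 of the knockdown, the library with the most PRG2, was also the lowest knockdown library for ALAS1, ALAD, UROS, UROD, CPOX, PPOX and FECH and the highest for ALAS2. Without it the log2 fold changes were -0.35 for CPOX, 0.41 for PPOX and 0.61 for ALAS2. Whether the PRG2 level of this library bears on its enzyme levels was not tested.

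**Figure D2:**
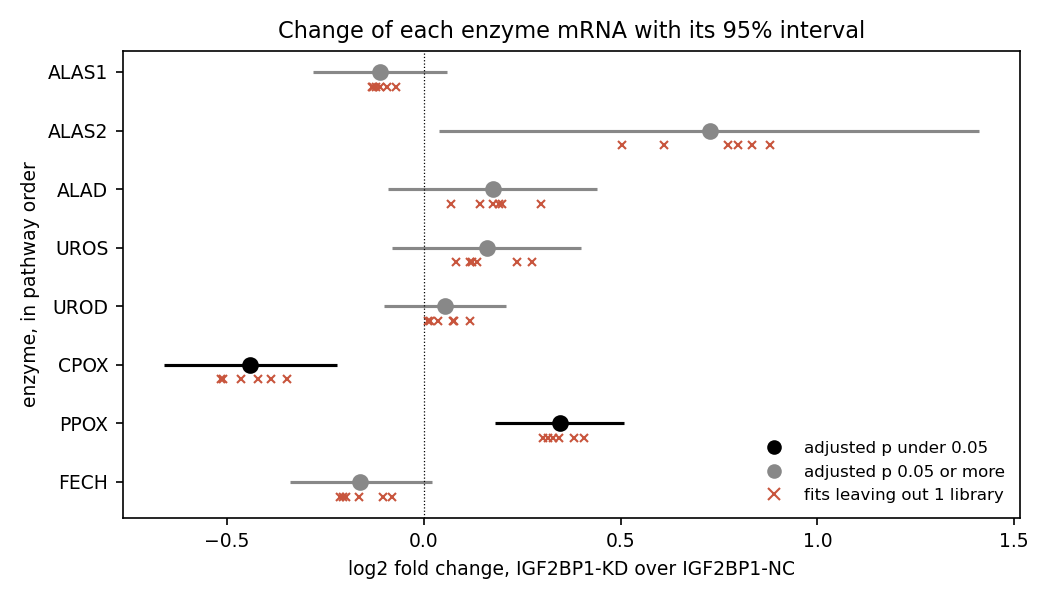
Log2 fold change of each enzyme in IGF2BP1-KD over IGF2BP1-NC with its 95% interval, black where the adjusted p was under 0.05, and crosses for the 6 fits that left out 1 library. CPOX lies at -0.44 and PPOX at 0.35 with intervals clear of 0, and ALAS2 at 0.73 has the widest interval, 0.04 to 1.41.

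Over the 8 enzymes, 1 was higher (PPOX), 1 was lower (CPOX) and 6 did not pass. Of all 11994 genes tested, 28.2% passed, 13.7% higher and 14.5% lower in IGF2BP1-KD, so 2 of 8 enzymes is near the share of all genes. The libraries of the groups did not overlap for 4 enzymes (ALAS1, ALAS2, CPOX and PPOX), against 45.6% of all genes. The median log2 fold change was 0.11 for the enzymes and -0.0048 for all genes tested. At an unadjusted p under 0.05, 3 of the 8 enzymes and 4897 of all 11994 genes passed, so the enzymes were again near the share of all genes. Neither called enzyme changed by 1.5-fold, and consecutive steps of the pathway, CPOX and PPOX, moved in opposite directions.

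The genes whose log2 CPM ran most closely with a called enzyme over the 6 libraries were taken from 9238 tested genes whose log2 CPM averaged 3 or more. For CPOX these were GYPE (Pearson's r = 0.996) and GAPDH (r = 0.995), with log2 fold changes of -0.44 and -0.42. For PPOX they were POP1 (r = 0.997) and CENPA (r = 0.995), with log2 fold changes of 0.27 and 0.41. These r were picked as the highest among 9238 genes over 6 libraries that fall into the study's groups. Both the search and the difference between the groups are part of these r.

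The other genes of heme metabolism were taken from lists, and each list is given by its count and its median. Each count is to be read against all genes tested, where 28.2% passed, 13.7% higher and 14.5% lower. Of 20 genes of heme and iron transport in mitochondria, 1 was higher and 4 were lower, with a median log2 fold change of -0.09. CLPX, an unfoldase that activates ALAS, had a mean of 75.3 CPM in IGF2BP1-NC and 87.3 CPM in IGF2BP1-KD (log2 fold change 0.21, adjusted p = 0.0316, edgeR quasi-likelihood fit, Benjamini-Hochberg). Among the fits leaving out 1 library this call held in 1, that without IGF2BP1-NC replicate 1, and the adjusted p was 0.0535 to 0.107 in the other 5 and 0.0611 with the replicate number as a block. SUCLG2, a subunit of a succinyl-CoA ligase, fell from 39.4 to 27.2 CPM (log2 fold change -0.53), ABCB8, a mitochondrial ABC transporter, from 112 to 81.7 CPM (log2 fold change -0.46), and CLPP, the protease partner of CLPX, from 72.4 to 57.0 CPM (log2 fold change -0.35).

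Of 16 genes of heme export, degradation and sensing, 13 were tested, 3 were higher and 1 lower, with a median of 0.17. SLC46A1, a folate transporter that can also carry heme, rose from 11.8 to 17.8 CPM (log2 fold change 0.59), and NR1D1, a nuclear receptor that binds heme, from 9.60 to 13.3 CPM (log2 fold change 0.47). The call on NR1D1 was lost without replicate 2 of either group (adjusted p = 0.0755 without that of IGF2BP1-NC and 0.0898 without that of IGF2BP1-KD). The biliverdin reductases, which act after heme is opened by heme oxygenase, moved apart. BLVRB had 336, 367 and 356 CPM in IGF2BP1-NC and 435, 435 and 431 CPM in IGF2BP1-KD (log2 fold change 0.30, adjusted p = 0.00373, edgeR quasi-likelihood fit, Benjamini-Hochberg). BLVRA had 45.6, 43.8 and 38.2 CPM against 33.0, 29.4 and 31.9 CPM (log2 fold change -0.43, adjusted p = 0.00491 in the same edgeR test), and neither gene's groups overlapped.

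In the list of heme a and heme c assembly, COX10 (log2 fold change 0.12), COX15 (0.07) and HCCS (0.20) were not called. Its 9 tested genes held 1 higher and 1 lower, with a median of 0.07. These were COX17, a copper chaperone of cytochrome oxidase (log2 fold change 0.35, adjusted p = 0.0322), and SCO1, which delivers copper to the same enzyme (log2 fold change -0.30, adjusted p = 0.024, both edgeR quasi-likelihood fit, Benjamini-Hochberg). Each call held in 2 of 6 fits leaving out a library. That of COX17 was lost without replicate 2 or 3 of either group (adjusted p up to 0.125) and with the replicate block (0.0583). That of SCO1 was lost without IGF2BP1-NC replicate 2 or 3 or IGF2BP1-KD replicate 1 or 3 (up to 0.0915) and with limma on FPKM (0.0546 and 0.0535). Of 18 genes of iron-sulfur cluster assembly and of the iron regulatory proteins that read the element shown above in ALAS2, 2 were higher and 3 lower, with a median of 0.01. NFU1, a cluster carrier, rose (log2 fold change 0.38), while NFS1, the cysteine desulfurase of the pathway, fell from 54.7 to 41.1 CPM (log2 fold change -0.41). LYRM4, its partner, had a log2 fold change of -0.28 (adjusted p = 0.022, edgeR quasi-likelihood fit, Benjamini-Hochberg) and GLRX5, also a carrier, one of -0.22 (adjusted p = 0.032 in the same edgeR fit), and each call held in 2 of 6 fits leaving out a library. That of LYRM4 was lost without IGF2BP1-NC replicate 2 or 3 or IGF2BP1-KD replicate 1 or 3 (adjusted p up to 0.0821). That of GLRX5 was lost without replicate 2 or 3 of either group (up to 0.116) and with the replicate block (0.0586).

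Of 17 regulators of ALAS1 and ALAS2 transcription, 16 were tested, 1 was higher and 6 were lower, with a median of -0.12. Among all genes tested, 13.7% were higher and 14.5% lower. GATA2 had 175, 182 and 173 CPM in IGF2BP1-NC and 251, 243 and 263 CPM in IGF2BP1-KD (log2 fold change 0.51, adjusted p = 0.000175, edgeR quasi-likelihood fit, Benjamini-Hochberg). GATA1, the erythroid factor that binds ALAS2, fell by 0.25 on the log2 scale (adjusted p = 0.00918, edgeR quasi-likelihood fit, Benjamini-Hochberg), a call that missed narrowly without IGF2BP1-KD replicate 2 (0.0503). KLF1 had a log2 fold change of -0.24 (adjusted p = 0.0338 in the same edgeR fit), and its call held in 1 of the 6 fits leaving out a library, that without IGF2BP1-NC replicate 1 (up to 0.134 in the others, 0.0622 with the replicate block). NFE2 (log2 fold change -0.30) and TAL1 (-0.28) fell too, and FOXO1 fell from 3.02 to 1.21 CPM (-1.32).

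Globins bind the heme that the pathway makes. Of 10 globin genes, 9 were tested, none was higher and 4 were lower, with a median log2 fold change of -0.28. Among all genes tested, 13.7% were higher and 14.5% lower. HBD had 20.4, 24.6 and 35.1 CPM in IGF2BP1-NC and 5.48, 4.96 and 4.91 CPM in IGF2BP1-KD (log2 fold change -2.38, adjusted p = 7.44e-05, edgeR quasi-likelihood fit, Benjamini-Hochberg). HBQ1 fell from 23.1 to 12.3 CPM (log2 fold change -0.90). HBA2 had 124 CPM in IGF2BP1-NC and 81.3 CPM in IGF2BP1-KD (log2 fold change -0.60, adjusted p = 0.0152, edgeR quasi-likelihood fit, Benjamini-Hochberg), a call lost without IGF2BP1-NC replicate 3 (0.0569) or IGF2BP1-KD replicate 1 (0.0582) or 3 (0.0684), and reads of HBA2 and its near-identical copy HBA1 may be split by the counting. The summed level of the 10 globins was 6542 to 7771 CPM in IGF2BP1-NC and 6649 to 7533 CPM in IGF2BP1-KD, ranges that overlapped. Most of this sum was HBE1, which was not called (log2 fold change 0.12). It had 4462, 5093 and 4563 CPM in IGF2BP1-NC and 5326, 5421 and 4565 CPM in IGF2BP1-KD.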

How the data were processed

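RNA-seq of 6 libraries was grouped by the labels into IGF2BP1-KD and IGF2BP1-NC (n = 3 each). The deposited counts per gene were made by the authors with HTSeq-count, after trimming (Trimmomatic) and alignment to GRCh38 (HISAT2). The deposited FPKM values are described by the authors as made with Cufflinks, and they are proportional to the counts within a gene. Versions, annotation release and strand setting are not given in the sources used here.

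Counts were tested in R 4.3.3 with edgeR 4.0.16 (TMM, filterByExpr, robust quasi-likelihood fit, two-sided), with Benjamini-Hochberg adjustment over 11994 genes and a threshold of 0.05. The common biological coefficient of variation was 9.55%. Alternatives used DESeq2 1.42.0, limma 3.58.1 (voom, or log2(FPKM + 1) and log2(FPKM + 0.1) for genes with a mean of at least 1 FPKM), other scaling and filters, a replicate block and each library left out. Tests were checked on simulated data. Gene models came from GENCODE release 44 and promoter windows from RefSeq.

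The members and lists were chosen with earlier results of these data known. Named genes are the 8 enzymes, IGF2BP1, up to 3 largest rises and 3 largest falls among called genes of each list, the 2 genes with the highest Pearson's r for each called enzyme, and cell type markers. Symbols were matched also through older names. Some genes that this rule names are not reported here. Of 7 megakaryocyte markers, 2 were tested, 0 were higher and 1 was lower, against 13.7% and 14.5% of all genes tested. The summed levels of the 7 markers were 34.2 to 54.3 CPM in IGF2BP1-NC and 46.4 to 50.5 CPM in IGF2BP1-KD.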

Additional observations from a re-analysis of the deposited data

How the results depend on the processing

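CPOX and PPOX kept their direction and their call at the adjusted p threshold in every fit run, and no result reversed its direction. The count of enzymes called higher was 2 with DESeq2, limma-voom, limma on FPKM with either pseudocount, the replicate block and an unadjusted p, and 1 to 2 when 1 library was left out. ALAS2 was the added enzyme in each of these but the fit without IGF2BP1-KD replicate 3, where it was UROS. The log2 fold change of ALAS2 was 0.726 with DESeq2 (adjusted p = 0.0324), 0.767 with limma-voom (0.0175), 0.77 and 0.777 with limma on log2(FPKM + 1) and log2(FPKM + 0.1) (0.0263 and 0.0259), and 0.727 at the unadjusted p of 0.0409. It lay between 0.503 and 0.88 when 1 library was left out, and UROS between 0.081 and 0.275. The cause of these changes was not tested. The replicate numbers did not pair the libraries (correlation of deviations -0.052, 0.0363 and -0.106 for numbers 1, 2 and 3), and with the replicate block ALAS2 had 0.764 (adjusted p = 0.0202).

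At a fold threshold of 1.5 no enzyme passed in either direction (0 higher, 0 lower), as at 2-fold, and 667 and 367 of all genes were then higher and 548 and 200 lower. Leaving out 1 library gave 1144 to 1929 genes higher and 1146 to 2062 lower, the lowest of the latter without IGF2BP1-KD replicate 2. Of all 11994 genes tested, 13.7% were higher and 14.5% lower in the main fit, and 2416 and 2481 genes at an unadjusted p. The 6 related lists held 20, 13, 9, 18, 16 and 9 tested genes, in the order given above. For these lists together, 8 genes were higher and 19 lower in the main fit, and 14 were higher and 26 lower at an unadjusted p. At 1.5-fold and 2-fold, 1 and 0 were higher and 4 and 2 lower. When 1 library was left out, 5 to 10 were higher and 12 to 27 lower. The refits of GATA1, KLF1, SLAMF7 and HECTD3 and the counts of the lists were also chosen after seeing the data. Per canonical mRNA length, likewise chosen then, levels in IGF2BP1-NC and IGF2BP1-KD were 49.3 and 55.5 FPKM for UROS, 38.9 and 49.8 FPKM for PPOX, 24.0 and 17.8 FPKM for CPOX, 536 and 561 FPKM for UROD and 5.64 and 6.41 FPKM for ALAD, and 15.5 FPKM for ALAS1 in IGF2BP1-NC. With 3 libraries a group, the exact test of the ALAS2 to ALAS1 ratio could not reach 0.05.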
